A study of Mus musculus with 8 samples.

Results

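The dystrophin-glycoprotein complex was followed here through 8 of its genes, *Dmd*, *Utrn*, *Dag1*, *Sgca*, *Sgcb*, *Sgcd*, *Dtna* and *Sspn*, in mouse gastrocnemius (GAS) muscle. The genes were chosen by symbol, and each was matched to 1 gene-level probe set, so that 8 of the 22206 probe sets of the array were members. The 8 arrays came from male wild-type C57/Bl6j mice whose age per the labels was 14 weeks, 3 weeks after an adeno-associated virus (AAV) was injected into the muscle. The virus given to 4 legs coded for a short hairpin RNA against *Mytho* (AAV sh-RNA MYTHO, or MYTHO-KD), and the virus given to the opposite legs coded for a scrambled one (AAV sh-RNA scrmb, 4 legs). Per the study's methods the virus was of a serotype with tropism for skeletal muscle, and a U6 promoter, which is not restricted to a cell type, drove the hairpin. Both groups thus carried a virus, and no uninjected muscle was used here. From the number in each column name, 1 leg of each group was assigned to each of 4 mice, named animals A to D below.

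The complex spans the membrane of the muscle fibre. Inside the fibre dystrophin binds actin, and in the membrane it binds dystroglycan, which holds laminin of the basement membrane outside, while the sarcoglycans and sarcospan stiffen this axis and dystrobrevin and the syntrophins attach signalling proteins to it. Loss of dystrophin, of certain sarcoglycans or of the sugar chains of dystroglycan causes muscular dystrophy, and utrophin is a close relative of dystrophin that sits at the neuromuscular junction in adult fibres. The question asked of the data was whether the level of these transcripts differed between MYTHO-KD and control muscle at 3 weeks.

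The deposited values are log2 signals, in which a difference of 1 is a doubling, and every difference below is MYTHO minus scrmb. *Dmd* and *Sgcd* were higher in all 4 MYTHO legs than in any scrmb leg, *Sgcb* was lower in all 4, and the other 5 members overlapped between the groups. Groups without overlap occurred for 6.46% of all probe sets. At an unadjusted p under 0.05 in limma, 2 members were higher and 1 was lower, against 4.81% of all probe sets higher (1068) and 7.58% lower (1683). With each array centred on its median, the same count of members was read against 1353 probe sets higher and 1408 lower. No member passed an adjusted p under 0.05 (limma, Benjamini-Hochberg over all probe sets), a threshold that 6 probe sets, 0.027% of all, passed. With eBayes trend and robust, 30 probe sets higher and 130 lower passed, *Dmd* among them (adjusted p = 0.0492), and without single arrays 0 to 14 higher and 1 to 140 lower passed, 14 and 140 without the scrmb array of animal D. The members' log2 fold changes ran from -0.475 to 1.02 with a median of 0.19, beside a median of -0.005 over all probe sets.

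The genes with separated groups lie apart in the genome. *Dmd* (Entrez gene 13405) is annotated on chromosome X from 82814664 to 85205050 in GRCm38.p6, the assembly also named mm10. *Sgcb* (24051) lies on chromosome 5 from 73632749 to 73647737, and *Sgcd* (24052) on chromosome 11 from 46971077 to 47989451. Their start-site windows from RefSeq are printed because these are the members whose groups did not overlap, and they show how unlike the sequence around the starts of these genes is. Each window holds 250 bases before and 50 bases after an annotated start, on the strand of the gene, 5′ to 3′. Capitals mark E-boxes, the letters CANNTG, which read the same on both strands and which myogenic bHLH factors bind.
*Dmd*, chrX:82948620-82948919, plus strand: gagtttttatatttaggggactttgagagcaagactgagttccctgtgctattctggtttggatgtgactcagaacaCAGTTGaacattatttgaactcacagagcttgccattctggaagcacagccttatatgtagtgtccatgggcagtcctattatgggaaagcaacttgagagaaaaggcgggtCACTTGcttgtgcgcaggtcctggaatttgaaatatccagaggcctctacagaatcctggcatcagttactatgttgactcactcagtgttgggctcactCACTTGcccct
*Sgcb*, chr5:73647688-73647987, minus strand: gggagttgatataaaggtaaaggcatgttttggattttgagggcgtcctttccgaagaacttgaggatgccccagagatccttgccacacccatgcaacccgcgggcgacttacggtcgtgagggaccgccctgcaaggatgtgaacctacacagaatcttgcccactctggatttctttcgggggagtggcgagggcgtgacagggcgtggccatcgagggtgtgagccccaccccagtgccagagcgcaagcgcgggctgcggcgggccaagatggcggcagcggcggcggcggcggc
*Sgcd*, chr11:47379276-47379575, minus strand: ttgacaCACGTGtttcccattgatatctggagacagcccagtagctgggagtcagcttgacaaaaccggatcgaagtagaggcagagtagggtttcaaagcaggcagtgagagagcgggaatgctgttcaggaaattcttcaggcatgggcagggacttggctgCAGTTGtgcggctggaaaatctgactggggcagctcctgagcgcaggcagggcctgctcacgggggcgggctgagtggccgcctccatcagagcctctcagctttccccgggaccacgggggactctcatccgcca
The *Dmd* window is the upstream one of 2 in the table and lies inside the annotated span of the gene, as the *Sgcd* window does. The *Dmd* window held 3 E-boxes, 1 MEF2 site and 1 CArG box, none overlapping another, with both strands searched. The other *Dmd* window, chrX:85048045-85048344, held none of these motifs and 14 CpG dinucleotides. The *Sgcd* window held 2 E-boxes and the *Sgcb* window 0, and neither held a MEF2 site or a CArG box. Of the 32851 windows of this length in the table, 72.3% held an E-box, 3.19% a MEF2 site and 1.63% a CArG box. CpG dinucleotides numbered 2 in the printed *Dmd* window, 12 in the *Sgcd* window and 24 in the *Sgcb* window, beside a median of 7 over all windows. These matches describe letters in a window and were not tested as binding sites. In all, 7 of the 8 members had a window. *Utrn* had 7 E-boxes, *Sgca* had 2, *Dag1* had 1 in each of 2 windows, and *Sspn* had 0 and 1 in its 2 windows.

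Medians of the log2 signal lay between 6.39 and 6.47 on the 8 arrays, and each array had a mean correlation of 0.982 to 0.985 across probe sets with the others of its group. The targeted gene, listed as D230025D16Rik, was lower in every MYTHO leg than in any scrmb leg, at 14.2% of the scrmb level (log2 fold change -2.81, limma adjusted p = 0.00044). The 5 skeletal fibre markers, among them *Ckm* and *Acta1*, had log2 signals of 18.00 to 19.93 on all arrays, and 19.93 is the ceiling of the scale, so *Acta1* was saturated on all 8. No member was saturated on any array. The 8 slow-fibre markers did not follow the groups in every animal: their mean log2 signal was 12.47 in the scrmb leg of animal A against 10.65 to 11.00 in the other scrmb legs, and 10.69 in the MYTHO leg of animal D against 13.18 to 13.61 in the other MYTHO legs. Since whole pieces of muscle were extracted, fewer cells of a type and less RNA per cell cannot be told apart for any gene below.

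*Dmd* codes for dystrophin, the rod-like protein that joins the actin cytoskeleton to the membrane complex. In the scrmb legs of animals A to D its log2 signal was 8.61, 9.78, 9.15 and 9.33, and in the MYTHO legs 10.11, 10.46, 10.05 and 10.33. Each MYTHO leg was above each scrmb leg, by at least 0.27, and the scrmb leg of animal A was the lowest of the 8. The mean was 9.22 ± 0.48 (SD, n = 4) for scrmb and 10.24 ± 0.19 (SD, n = 4) for MYTHO. The log2 fold change was 1.02, its standard error 0.24. This is a 2.03-fold difference with a 95% confidence interval of 1.41 to 2.91. The unadjusted p was 0.00115, which placed *Dmd* at rank 195 of 22206 probe sets, and the adjusted p was 0.13 (limma). Over the 70 relabellings of the arrays the exact two-sided permutation p was 0.0286, the smallest that 4 arrays against 4 allow. Those relabellings ignore the pairing of legs. With the legs swapped within animals, in 16 arrangements, the exact p was 0.125 for *Dmd*, *Sgcb* and *Sgcd*, the smallest that 4 pairs allow. It was also 0.125 for *Dtna*, whose groups overlapped. Between the legs of one animal *Dmd* was higher by 1.50, 0.68, 0.90 and 1.00 in animals A to D. Without the scrmb array of animal A the log2 fold change was 0.82, with an unadjusted p of 0.00299 and an adjusted p of 0.222 (limma). Which transcripts of *Dmd* the probes cover is not given in the sources used here, so the full-length and the shorter transcripts cannot be told apart.

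**Figure D1:**
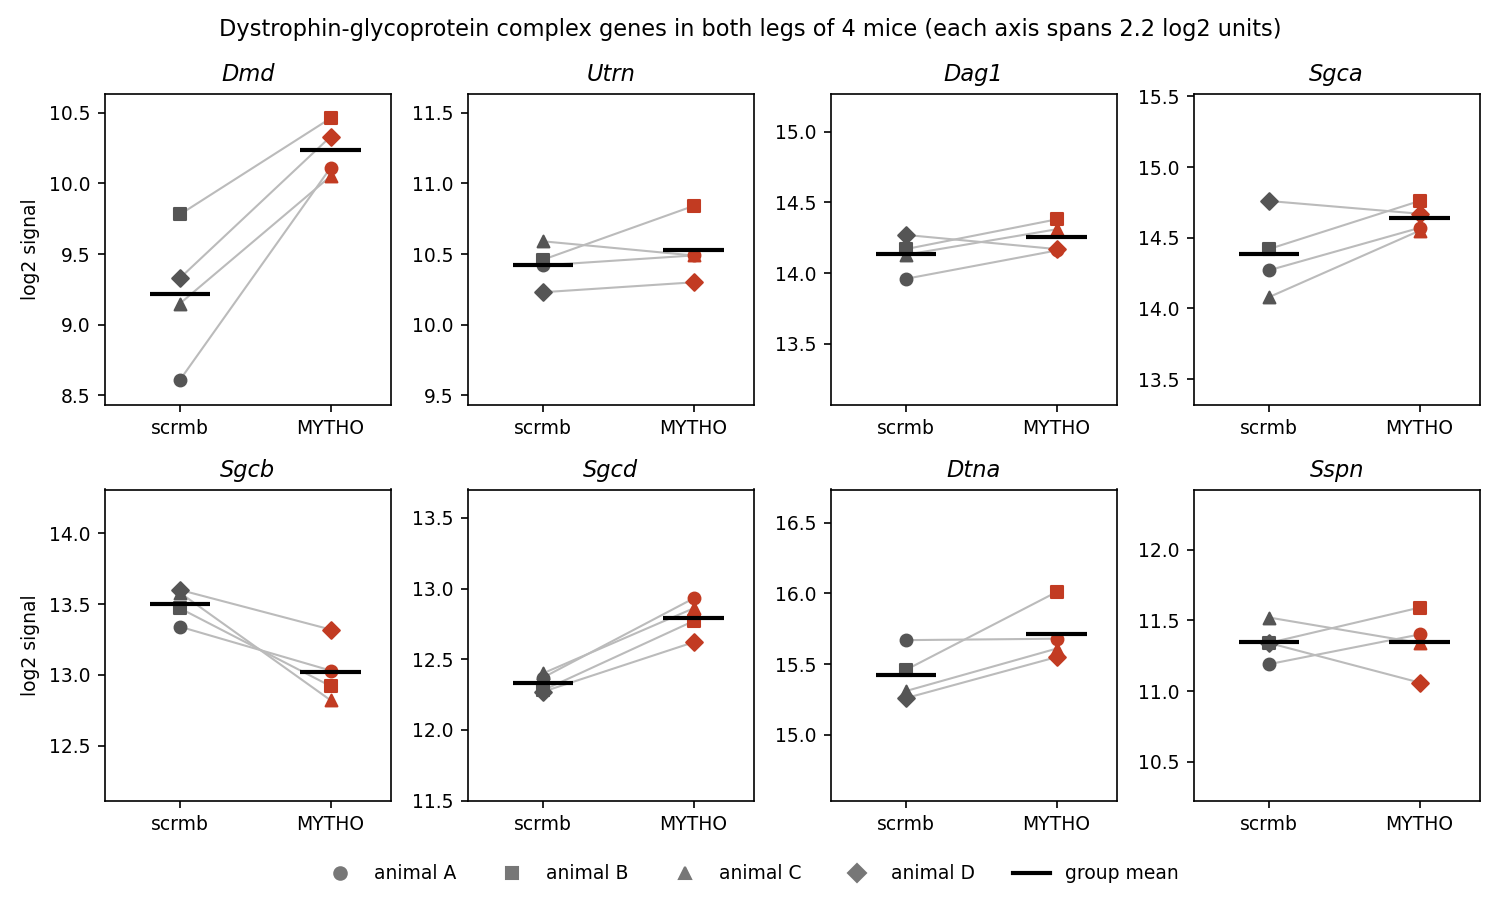
Log2 signal of each of the 8 genes in the scrmb and MYTHO legs, with a marker shape for each animal, grey lines joining the legs of one animal and black bars for the group means (n = 4). All panels span the same number of log2 units. The MYTHO legs lie above all scrmb legs for *Dmd* and *Sgcd*, below them for *Sgcb*, and overlap with them for the other 5 genes.

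*Utrn* codes for utrophin, which can stand in for dystrophin at the membrane. The scrmb legs of animals A to D had log2 signals of 10.42, 10.46, 10.59 and 10.23, and the MYTHO legs had 10.49, 10.84, 10.49 and 10.30. The groups overlapped, with animal B highest among the MYTHO legs and animal D lowest in both groups. *Utrn* had a log2 fold change of 0.105 with a 95% confidence interval of -0.29 to 0.50 (limma adjusted p = 0.865). The gene lies on chromosome 10 from 12382187 to 12869888.

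*Dag1* codes for dystroglycan, which is cut into an outer part that binds laminin and a membrane part that binds dystrophin. The log2 signal was 13.96, 14.17, 14.13 and 14.27 in the scrmb legs and 14.16, 14.38, 14.31 and 14.17 in the MYTHO legs. The groups overlapped, and the MYTHO leg was the higher one in 3 of 4 animals, animal D being the exception. *Dag1* had a log2 fold change of 0.12 with an interval of -0.24 to 0.48 (limma adjusted p = 0.814). It is annotated on chromosome 9 from 108204861 to 108263977.

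The 3 sarcoglycan members did not share a direction. *Sgca*, *Sgcb* and *Sgcd* code for alpha-, beta- and delta-sarcoglycan, subunits of one membrane complex in which beta and delta form the core that assembles first. *Sgcb* had log2 signals of 13.34, 13.47, 13.58 and 13.60 in the scrmb legs and 13.03, 12.92, 12.82 and 13.32 in the MYTHO legs. All MYTHO legs were below all scrmb legs, by a margin of 0.02 between the MYTHO leg of animal D and the scrmb leg of animal A. The log2 fold change of *Sgcb* was -0.475 with a standard error of 0.18, which put the MYTHO group at 71.9% of the scrmb level. The unadjusted p was 0.0196 and the adjusted p 0.305 (limma), and the exact permutation p was 0.0286. Within animals A to D, *Sgcb* differed by -0.31, -0.55, -0.76 and -0.28. Without the MYTHO array of animal C the log2 fold change was -0.41 and the unadjusted p 0.054 (limma), so at that threshold the call rested on this array.

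*Sgcd* differed the other way. In the order A to D, the scrmb legs stood at 12.37, 12.28, 12.40 and 12.27 on the log2 scale and the MYTHO legs at 12.93, 12.77, 12.86 and 12.62. The scrmb legs lay within 0.13 of each other, and the lowest MYTHO leg, that of animal D, was 0.22 above the highest of them. The log2 fold change of *Sgcd* was 0.465 with a standard error of 0.16, a 1.38-fold difference with an interval of 1.08 to 1.76. The unadjusted p was 0.0141 and the adjusted p 0.273 (limma), with an exact permutation p of 0.0286. The legs of one animal differed by 0.56, 0.49, 0.46 and 0.35. Groups without overlap, higher in MYTHO, occurred for 2.59% of all probe sets, and lower in MYTHO for 3.87%, beside 2 and 1 of the 8 members.

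*Sgca* had log2 signals of 14.27, 14.42, 14.08 and 14.76 in the scrmb legs and 14.57, 14.76, 14.55 and 14.67 in the MYTHO legs. The scrmb leg of animal D equalled the top MYTHO leg, while the other scrmb legs were below all MYTHO legs. The log2 fold change was 0.255 with an interval of -0.15 to 0.66 (limma adjusted p = 0.632). *Sgca* lies on the same chromosome as *Sgcd*, from 94962777 to 94976327.

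*Sspn* codes for sarcospan, a small membrane protein bound to the sarcoglycans. The log2 signal was 11.19, 11.34, 11.52 and 11.34 in the scrmb legs and 11.40, 11.59, 11.34 and 11.06 in the MYTHO legs. The means were the same, 11.35 in both groups, with the MYTHO leg higher in 2 animals and lower in 2. The interval of the log2 fold change ran from -0.39 to 0.39, so a difference inside it was not detectable with 4 arrays a group. *Sspn* lies on chromosome 6 from 145931873 to 145965225.

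*Dtna* codes for alpha-dystrobrevin, which binds dystrophin inside the fibre and carries syntrophins. The log2 signal was 15.67, 15.46, 15.31 and 15.26 in the scrmb legs and 15.68, 16.01, 15.61 and 15.55 in the MYTHO legs. The MYTHO leg was the higher one in 4 of 4 animals, but in animal A by only 0.01, and the groups overlapped because the scrmb leg of animal A was high. The log2 fold change was 0.29 with an interval of -0.11 to 0.68 (limma unadjusted p = 0.14, adjusted p = 0.561), and the exact permutation p was 0.0857.

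**Figure D2:**
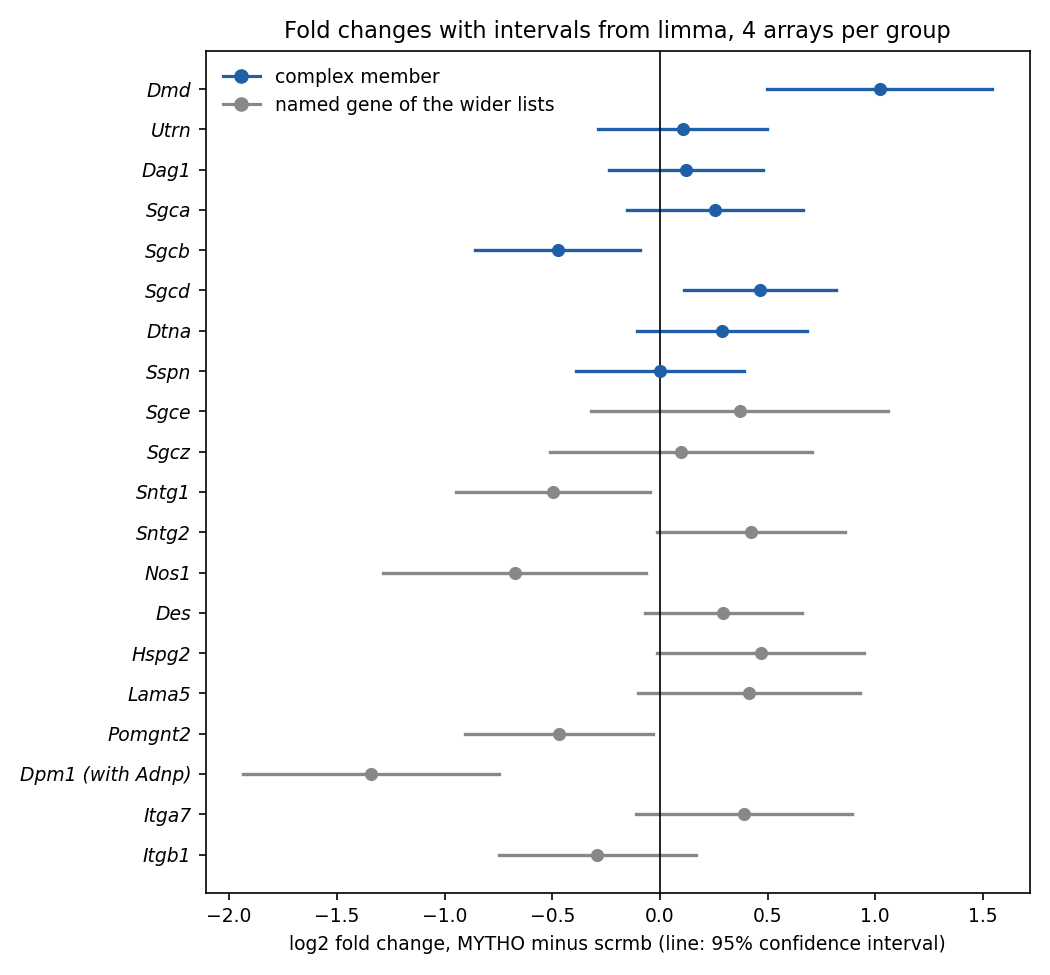
Log2 fold change (MYTHO minus scrmb, points) with its 95% confidence interval from limma (lines) for the 8 complex genes in blue and 12 genes of the wider lists in grey, 4 arrays per group. The intervals of *Dmd* and *Sgcd* lie above 0 and that of *Sgcb* below it, and among the grey genes those of *Sntg1*, *Nos1*, *Pomgnt2* and *Dpm1* lie below 0.

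The genes around the complex were taken from 6 lists with 50 genes in all, each measured by 1 probe set. Of these, 0 were higher and 4 were lower at an unadjusted p under 0.05, 8% beside 12.4% of all probe sets, and 0 passed an adjusted p under 0.05 (limma). Of these 4, *Dpm1* kept that p in 20 of 20 alternatives, but *Nos1* kept it in 14 of 20, *Sntg1* in 13 of 19 and *Pomgnt2* in 13 of 20. Of the named genes that did not pass, *Hspg2* did so in 6 of 20 alternatives and *Sntg2* in 5 of 19, both higher. *Itga7* (higher) and *Itgb1* (lower) did so in 2 of 20, *Des* in 1 of 20 and *Lama5* in 1 of 18, both higher. The count of 0 higher thus did not hold in every alternative. The lists' median log2 fold change was 0.04. In a list of 2 further sarcoglycans, *Sgce*, the epsilon subunit found in many tissues, was at 0.37 with an interval of -0.32 to 1.06 (limma adjusted p = 0.691). It was higher in 2 animals and lower in 2. *Sgcz*, the zeta subunit, was at 0.10 with an interval of -0.51 to 0.71 (adjusted p = 0.922).

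Among 7 syntrophin, dystrobrevin and dystrophin-family genes the median was 0.045, and 1 was lower. That gene was *Sntg1*, gamma-1-syntrophin, at -0.495 (limma unadjusted p = 0.0336, adjusted p = 0.358), where the scrmb leg of animal D, at 5.61, lay inside the range of the MYTHO legs. Its unadjusted p was 0.0762 to 0.0879 (limma) without the scrmb array of animal A, B or C or the MYTHO array of animal A or C. *Sntg2*, its close relative, was at 0.42 (adjusted p = 0.42), with log2 signals of 4.90 to 6.04, below the median of every array. The unadjusted p of *Sntg2* fell under 0.05 in 5 of 19 alternatives, among them quantile normalization (0.0415) and median centring (0.0462, limma). Among 10 partners at the membrane and linkers to the cytoskeleton the median was -0.05, and again 1 gene was lower. *Nos1* codes for neuronal nitric oxide synthase, which the syntrophins and dystrophin hold at the membrane. The log2 signal was 10.06, 10.98, 10.74 and 11.27 in the scrmb legs and 9.61, 10.53, 9.90 and 10.31 in the MYTHO legs. The groups overlapped, yet the MYTHO leg was the lower one in 4 of 4 animals, by 0.45, 0.45, 0.84 and 0.96. The log2 fold change of *Nos1* was -0.675 (limma unadjusted p = 0.033, adjusted p = 0.357). Its unadjusted p was 0.0542 to 0.103 without the scrmb array of animal B, C or D or the MYTHO array of animal A or C. With animal as a fixed block the unadjusted p was 0.00604 (0.0268 as a random block), and without the scrmb array of animal A it was 0.00426 (limma). *Des*, the intermediate filament desmin, was at 0.295 (adjusted p = 0.512).

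The 11 extracellular ligands of dystroglycan had a median of 0.27, with 9 values above 0 and 1 below, beside 10870 above and 11241 below among all probe sets. None passed an unadjusted p under 0.05 (limma). *Hspg2*, the basement membrane proteoglycan perlecan, was at 0.47 (limma unadjusted p = 0.0555). That p fell under 0.05 in 6 of 20 alternatives, among them median centring (0.0425, limma). Without the scrmb array of animal C the log2 fold change of *Hspg2* was 0.28 and the unadjusted p 0.183 (limma). *Lama5*, a laminin chain, was at 0.41 (limma adjusted p = 0.514), with log2 signals of 4.37 to 5.49, below the median of every array. *Lama2*, the laminin chain of the muscle basement membrane, was the list's only gene without overlap between the groups. It was named after its values were seen. The log2 signal was 10.19, 10.42, 9.94 and 10.29 in the scrmb legs and 10.48, 10.63, 10.43 and 10.56 in the MYTHO legs, a log2 fold change of 0.315 with an interval of -0.06 to 0.69 (limma adjusted p = 0.493).

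The 18 enzymes that build or supply the sugar chains of dystroglycan had a median of -0.06, with 7 values above 0 and 11 below, and 2 were lower at an unadjusted p under 0.05. *Pomgnt2*, which extends the O-mannose core of dystroglycan, was at -0.47 (limma adjusted p = 0.369). Its unadjusted p was 0.0766 to 0.103 (limma) without the scrmb array of animal A or C or the MYTHO array of animal A or B, 0.0556 with animal as a fixed block (0.0337 as a random block) and 0.0542 with median centring. The probe set of *Dpm1*, a subunit of the enzyme that makes the mannose donor dolichol phosphate mannose, was at -1.34 with a standard error of 0.27 (limma unadjusted p = 0.000365, adjusted p = 0.0965). The log2 signal was 10.62, 11.29, 10.80 and 10.26 in the scrmb legs and 9.52, 9.21, 8.89 and 9.99 in the MYTHO legs. No MYTHO leg reached a scrmb leg, and animal D had the smallest difference, -0.27, against -1.10 to -2.08 in the others. That probe set also names *Adnp*, so the 2 genes cannot be told apart. *Dolk*, which makes the dolichol phosphate used by that enzyme, had groups that did not overlap the other way, at 0.39 (limma adjusted p = 0.442), and was named after its values were seen. Its lowest MYTHO leg was at 8.77 and its highest scrmb leg at 8.76, and in animal D the legs differed by 0.05. Of the integrin that also binds laminin on the fibre, *Itga7* was at 0.39 (adjusted p = 0.529) and *Itgb1* at -0.29 (adjusted p = 0.625).

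**Figure D3:**
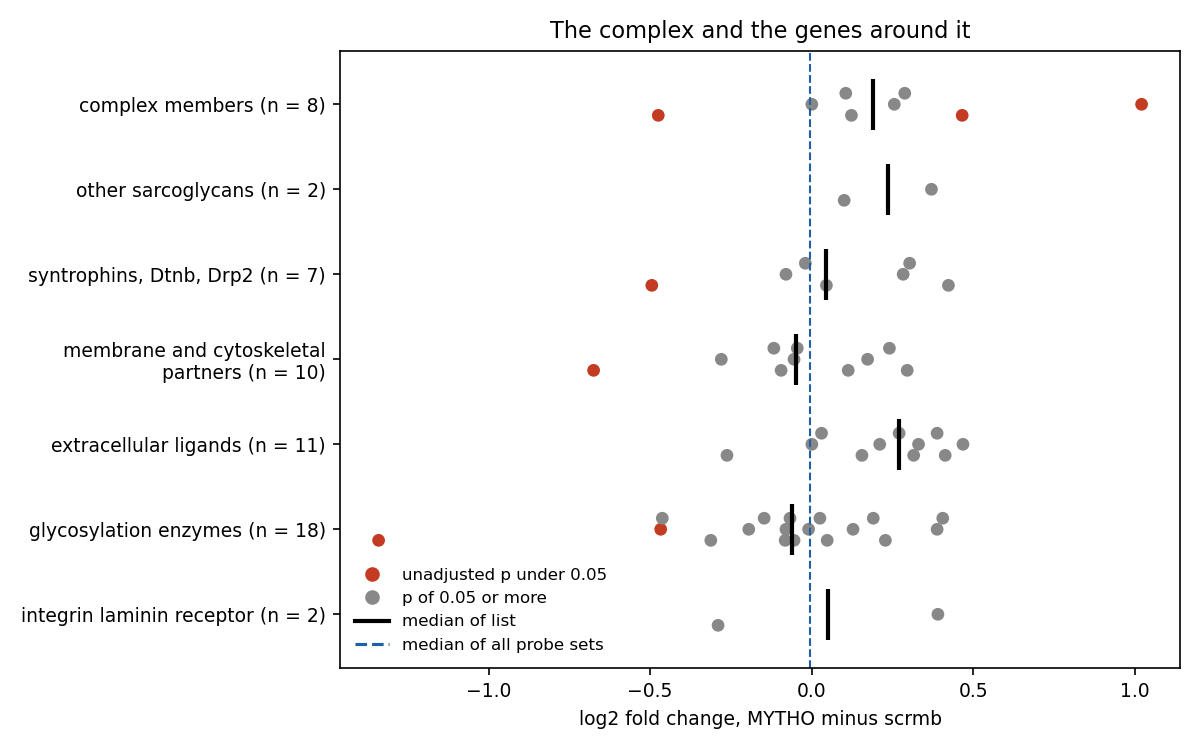
Log2 fold change (MYTHO minus scrmb) of each gene in the complex and in 6 lists of genes around it, with red points for an unadjusted p under 0.05 in limma, black bars for list medians and a dashed line for the median of all probe sets. The only red points above 0 are the 2 complex members *Dmd* and *Sgcd*, and 5 red points lie below 0, 1 of them the member *Sgcb*. With quantile normalization or median centring, which are not drawn, *Hspg2* and *Sntg2* also passed that threshold above 0.

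Markers of fibre type and of other cells were set beside these values. The slow-fibre list was higher, at an unadjusted p under 0.05 (limma), for 7 of 8 genes, with adjusted p-values of 0.28 or more and no gene without overlap between groups. The mean of the list differed between the legs of animals A to D by 1.14, 2.35, 2.57 and 0.04. Single markers in animal D differed both ways, *Tpm3* by 0.54 and *Tnni1* by 0.44 but *Myl2* by -0.41 and *Myl3* by -0.40. In the same animal *Dmd* differed by 1.00, *Sgcd* by 0.35 and *Sgcb* by -0.28. With the scrmb array of animal A and the MYTHO array of animal D left out (a choice made with the data in view), the log2 fold change was 0.79 for *Dmd*, 0.54 for *Sgcd* and -0.63 for *Sgcb* (limma unadjusted p = 0.00862, 0.021 and 0.01). Between the deviations of each array from its group mean and those of this list, the Pearson r over 8 arrays was 0.84 for *Sgcd*, -0.90 for *Sgcb*, -0.30 for *Sgca* and -0.55 for *Dmd*. These 8 arrays came from 4 mice and share the normalization, so the coefficients are descriptions and have no p. In this list the MYTHO leg of animal D lay farthest from its group mean, at 10.69 against 13.18 to 13.61 in the other MYTHO legs. The coefficients were not computed without that array. They were among 72 relations between 8 members and 9 marker lists, of which 6 were above 0.7 and 3 below -0.7. The part of fibre type in the differences of *Dmd*, *Sgcb* and *Sgcd* was not tested.

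**Figure D4:**
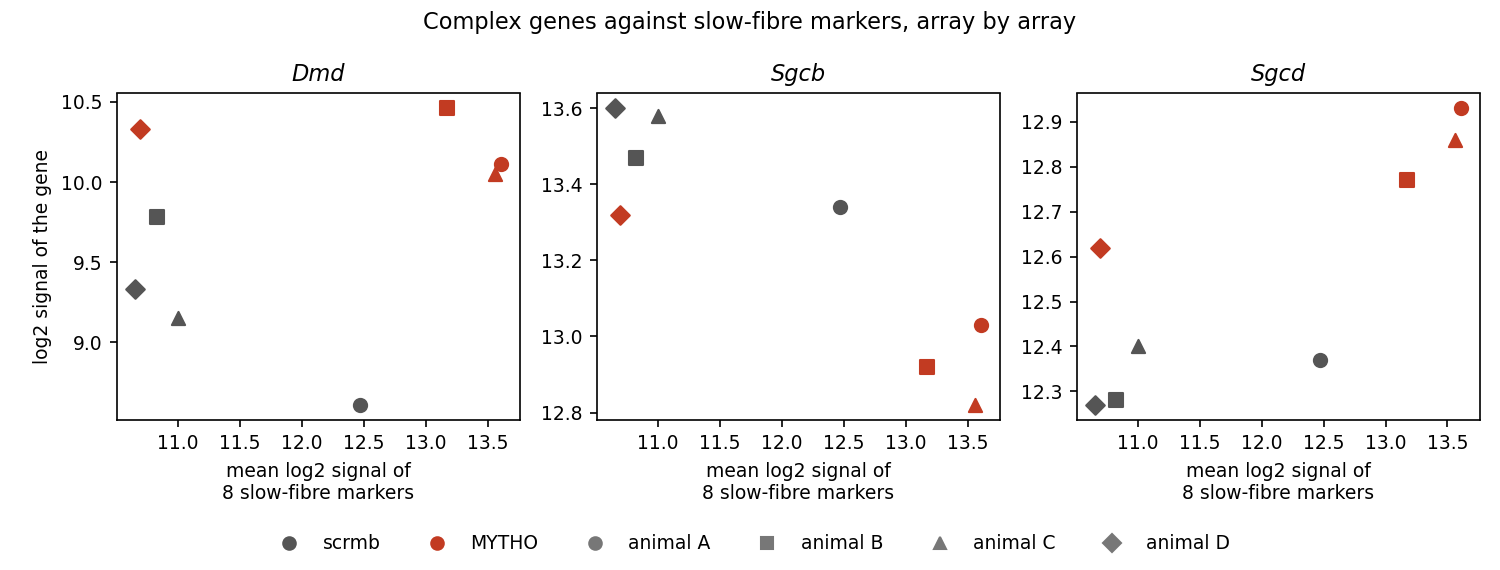
Log2 signal of *Dmd*, *Sgcb* and *Sgcd* (vertical axes) against the mean log2 signal of 8 slow-fibre markers (horizontal axes), 1 point per array, coloured by group and shaped by animal. The MYTHO leg of animal D lies among the scrmb legs on the horizontal axis at 10.69, its *Dmd* signal is 10.33 and its *Sgcb* signal 13.32. The scrmb leg of animal A lies apart from the other scrmb legs at 12.47.

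Of the cells between the fibres, endothelial markers were higher in mean for 6 of 6 genes, and 2 of them, *Pecam1* and *Tek*, had an unadjusted p under 0.05 (limma). Their summed level, as log2, was 13.34 to 13.69 in the scrmb legs and 13.87 to 14.00 in the MYTHO legs, without overlap. Of 5 fibroblast markers 1 was lower, *Dcn*, at -0.595, and the list's median was -0.22 with 3 values below 0 and 2 above. *Col3a1*, at 0.42, owed its value to animal A, where it differed by 1.89 against -0.15 to 0.01 in the others. Their summed level, 17.65 to 18.08 in the scrmb legs and 17.04 to 17.64 in the MYTHO legs, was nearly that of *Dcn* alone, and the list's mean log2 signal overlapped, with 10.78 to 10.96 and 10.54 to 11.18. Smooth muscle, Schwann cell and macrophage markers had 0 of 6, 0 of 6 and 0 of 5 past that threshold. The scale has no 0 for a marker, so none could be called absent. Several members, *Utrn*, *Sgcb*, *Sgcd* and *Sspn* among them, are also expressed in vessel walls, and within groups *Utrn* and *Sspn* followed the smooth muscle list, with r over 8 arrays of 0.81 and 0.77. The correlation of *Dmd* with the endothelial list was 0.02, of *Sgcd* -0.33 and of *Sgcb* -0.47. With the smooth muscle list it was 0.54 for *Dmd*, 0.15 for *Sgcd* and -0.21 for *Sgcb*. With the macrophage list it was 0.64, 0.04 and 0.08 in the same order. The part of these cells in the differences between groups was not tested.

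The members did not vary as one block. Among the 28 pairs of members, the correlation of their deviations from the group means over 8 arrays was positive in 15 and negative in 13, with a median of 0.14. *Utrn* and *Sspn* were the most alike pair at 0.81, followed by *Utrn* and *Dtna* at 0.66 and *Dmd* and *Dag1* at 0.62. *Sgcb* ran opposite to *Sgcd* at -0.61 and to *Dtna* at -0.61. The transcripts of the subunits beta and delta, whose proteins assemble together, thus had fold changes of opposite sign and a negative correlation within groups.

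**Figure D5:**
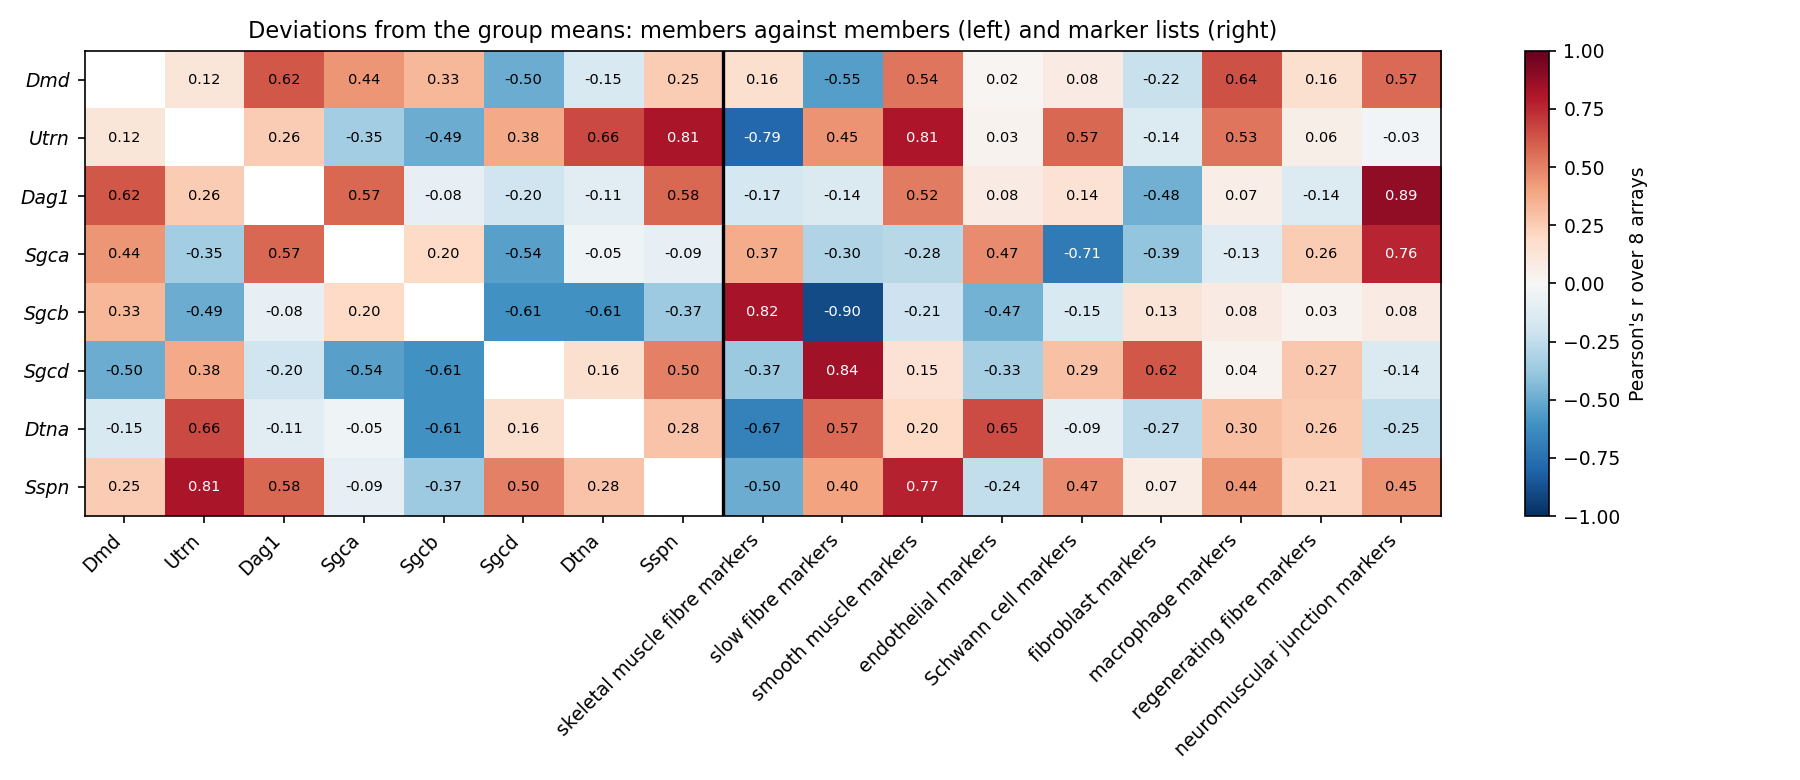
Pearson correlation of deviations from the group means over 8 arrays, for each complex gene (rows) against the other complex genes (columns left of the line) and 9 marker lists (columns right of it), with red for positive and blue for negative values. *Sgcb* and *Sgcd* have opposite signs against the slow-fibre list, -0.90 and 0.84, and *Utrn* and *Sspn* are alike at 0.81.

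For each member the gene most alike in these deviations was sought among 10529 probe sets of the upper 50% by mean signal. It was *Rpl7l1* for *Dmd* with r = 0.977, *Tesk2* for *Utrn* with 0.964, *Senp2* for *Dag1* with 0.985 and *Ndufb7* for *Sgca* with 0.989, each over 8 arrays. For *Sgcb* it was *Mettl20* with 0.969, for *Sgcd* *Mtg2* with 0.962, for *Dtna* *Smtnl1* with 0.971 and for *Sspn* *Tnip1* with 0.981. Between 19 and 116 probe sets exceeded 0.9 for each member. Each named coefficient is the largest of 10529 over only 8 arrays, so it is high by selection. It is a description without a p, and shared regulation was not tested. None of the 8 genes was itself a member, and none had an unadjusted p under 0.05 between the groups (limma).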

How the data were processed

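Total RNA of 8 GAS samples, isolated with Trizol and labelled with biotin, was hybridised to Clariom S Mouse arrays. The authors deposited log2 signals per gene-level probe set, made per the file headers with SST-RMA (background correction, quantile normalization and median-polish summary) in the Transcriptome Analysis Console version 4.0.1, with annotation release 36 on mm10. Quantile normalization removes differences in overall level between arrays. The deposited table also holds group averages, fold changes, p-values and false discovery rates of the authors, which were not used. The number of arrays limits the precision, and 0 further columns of per-sample values were present.

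The 22206 probe sets were fitted in R (version 4.3.3) with lmFit and eBayes of limma (version 3.58.1), defaults kept, MYTHO minus scrmb, two-sided and with no pairing term, as the array section of the study's methods names none, with Benjamini-Hochberg adjustment over all probe sets. The scripts were tested on simulated data. Exact permutation tests used all 70 relabellings, and for members also the 16 swaps within animals. Of 836 probe sets naming several genes, those that name a listed gene were kept, since a symbol was matched after splitting the field. Where a symbol was missing, RefSeq synonyms for GRCm38.p6 were used. Of several probe sets for a gene, that of highest mean signal was taken.

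All members, the targeted gene, and per list the genes with an unadjusted p under 0.05, filled up to 2 by absolute log2 fold change, are named, with the 1 most alike gene per member. Likeness was sought among unsaturated probe sets with 1 symbol. One gene of the planned lists is not reported here. The members and lists were chosen with earlier results of these data known. Same-numbered arrays come from the legs of one animal by the column names and the methods. Deviations of same-animal arrays from their group means correlated at 0.0027, -0.0014, 0.135 and 0.087 in animals A to D. Alternatives were quantile normalization, median centring, array weights, eBayes with its trend and robust options, filters keeping the upper 75% or 50% by mean signal, animal as a fixed or random block, 1 probe set per symbol and leaving out each array. Leaving out saturated probe sets, animal D, or the scrmb array of animal A with the MYTHO array of animal D was added after the data were seen.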

Additional observations from a re-analysis of the deposited data

Results flagged for a closer look

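In 42 groups of 4 arrays, covering the members, the targeted gene and the named genes around the complex, 3 had an array whose gap to the nearest other exceeded Dixon's 95% critical share of the group's range. Chance gives about 1 in 20 such groups. None of the 3 was a complex member. The targeted gene D230025D16Rik was at 8.80 in the MYTHO leg of animal C against 8.08 to 8.20 in the other MYTHO legs (gap 0.833 of the range). *Sntg1* was at 5.61 in the scrmb leg of animal D against 6.22 to 6.28 in the other scrmb legs (0.91). *Itga7* was at 8.85 in the scrmb leg of animal D against 8.30 to 8.39 in the others (0.836).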

How the results depend on the processing

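The fold changes of 7 members kept their sign under all 20 alternatives, and that of *Sspn*, 0 as reported, took either sign. The signal filters, the eBayes options, the animal blocks, 1 probe set per symbol and leaving out saturated probe sets cannot change a fold change. Those settings bear only on p. Without the MYTHO array of animal B, the log2 fold change of *Utrn* fell to 0.0017. *Dmd* and *Sgcd* kept an unadjusted p under 0.05 in 20 of 20, and *Sgcb* in 19. With eBayes trend and robust, *Dmd* (1.02) had an adjusted p of 0.0492, so that 1 member was called; in the other alternatives its adjusted p lay between 0.0934 and 0.33. Leaving out single arrays gave log2 fold changes of 0.82 to 1.21 for *Dmd*, -0.57 to -0.41 for *Sgcb* and 0.42 to 0.52 for *Sgcd*, and 0 to 1 members lower, 0 without the MYTHO array of animal C. With animal as a fixed replicate block, the unadjusted p was 0.000649 for *Dmd* (adjusted p = 0.158), 0.0301 for *Sgcb* and 0.026 for *Sgcd* (limma), and the block changed no call of a member.

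Counts over all probe sets, 2 higher and 4 lower at an adjusted p under 0.05, moved to 5 and 39 with median centring, 30 and 130 with eBayes trend and robust, 1 and 1 with the fixed block, 4 and 30 with the random block, 1 and 2 with 1 probe set per symbol, 5 and 55 without saturated probe sets, and 12 and 1 without the scrmb array of animal A and the MYTHO array of animal D. Without both arrays of animal D, 1 was higher. Without single arrays they ran from 0 to 14 higher and 1 to 140 lower, with 14 and 140 without the scrmb array of animal D. At an unadjusted p under 0.05, 1683 were lower, 1012 in the upper 50%, where fewer were tested. The *Dpm1* probe set passed an adjusted p under 0.05 with eBayes trend and robust (0.0244) and without the scrmb array of animal D (-1.50, 0.0443). *Sgcz*, at 0.10, ran from -0.084 to 0.30 without single arrays, below 0 without the scrmb array of animal A or the MYTHO array of animal C. The cause of these shifts was not tested. With 4 arrays a group, the intervals of the members' log2 fold changes allow differences that were not detectable here.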

Other observations

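The 6 neuromuscular junction genes, where utrophin also sits, had a median log2 fold change of 0.19. *Chrna1*, the alpha subunit of the acetylcholine receptor, was without overlap between groups, at 6.57, 6.20, 6.59 and 6.30 in the scrmb legs and 7.57, 7.55, 7.37 and 6.80 in the MYTHO legs of animals A to D. Its log2 fold change was 0.91 (limma unadjusted p = 0.00105, adjusted p = 0.127). It was named after its values were seen. Within groups the list's mean had an r over 8 arrays of 0.89 with *Dag1* and 0.76 with *Sgca*, and -0.03 with *Utrn*, given as a description without a p. Of 5 genes of regenerating fibres, *Myog* alone had an unadjusted p under 0.05, at 0.65 (limma adjusted p = 0.307). All 5 had a log2 fold change above 0, with a median of 0.495. The mean of these genes differed between the legs of animals A to D by 1.24, 0.40, 0.17 and 0.07.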
